A study of Mus musculus with 6 samples.

Results

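Lin28a, Lin28b, Hmga1, Hmga2, Igf2bp1, Igf2bp2, Igf2bp3 and Trim71 encode a set of proteins of early embryonic and progenitor cells that are tied together by the let-7 microRNAs. They were examined in the retinas of Onecut1-deficient (OC1-KO) mouse embryos and of their wild-type (WT) littermates. Every probe set that the array annotation assigns to 1 of these 8 genes and to no other gene was taken. This gave 19 probe sets of 6 genes, among 45037 on the array once 64 control probe sets were left out. Hmga1 and Igf2bp2 were not analysed here, since no probe set in the annotation used carries either name alone. Both groups were of mixed background. The Onecut1-deficient line was made with R1 embryonic stem cells and Swiss mice and was later crossed to C57Bl/6, and the labels name no other allele or treatment in either group. Retinas were taken at E14 by the sample labels, or E14.5 by the title of the experiment, and there was 1 array per embryo for 3 OC1-KO and 3 WT embryos, each numbered 1 to 3. The labels do not say what embryos of the same number share, nor how many litters were used.

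As background, LIN28A and LIN28B are RNA-binding proteins that stop the maturation of let-7 microRNAs, and let-7 in turn represses the messages of Lin28a, Lin28b, Hmga2, the Igf2bp genes and Trim71. HMGA1 and HMGA2 are small chromatin proteins that bind AT-rich DNA, and IGF2BP1 to IGF2BP3 bind messages such as that of Igf2 and govern their stability and translation. TRIM71 is an RNA-binding ubiquitin ligase named lin-41 in the worm, where lin-28, let-7 and lin-41 set the timing of larval cell fates. In vertebrate tissues these genes are known for high levels in young progenitors and for a decline as let-7 accumulates, and in the retina Lin28 proteins are linked to the early state of progenitors and to the response of Müller glia to injury.

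The link between the genes is the let-7 seed, bases 2 to 8 of the mature microRNA, through which it pairs with its targets. Of the sequences with that seed, 4 are shown together with miR-125b, a second microRNA known to repress Lin28a, whose seed differs. The seed is in capitals, and the sequences are those of RefSeq on build GRCm38.p6, written 5′ to 3′.
mmu-let-7a-5p: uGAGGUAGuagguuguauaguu
mmu-let-7b-5p: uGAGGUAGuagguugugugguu
mmu-let-7g-5p: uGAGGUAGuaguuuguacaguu
mmu-miR-98-5p: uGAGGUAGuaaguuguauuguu
mmu-miR-125b-5p: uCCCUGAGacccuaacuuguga
All 9 mature let-7 and miR-98 sequences matched there carry GAGGUAG as their seed. They differ from each other outside it, and mmu-let-7d-5p also differs at its first base. The array measures messages and not mature microRNAs, so the level of let-7 itself was not analysed here. The short motif ATTGAT, or ATCAAT on the other strand, is the core of the sequence that Onecut factors bind. It was present in none (0) of the 5 promoters of measured members that had an entry, against 7.54% of the 32851 promoters searched over the same window of 250 bases before to 50 bases after the start. With only 5 promoters, a count of 0 does not set the members apart from that share. Sites outside the window were not searched. Igf2bp1 had no entry.

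All values are log2 of the MAS5 signal, the summary that Affymetrix software gives for the probes of a set, and levels are compared within a probe set only. A probe set was kept for testing when its mean log2 signal exceeded 7 in either genotype, which left 20888 probe sets. Every probe set of Igf2bp1, Igf2bp3 and Trim71 and 3 of the 4 for Hmga2 were among them, whereas Lin28a and Lin28b lay below the filter on each of theirs. Thus 15 member probe sets of 4 genes were kept and 4 were not. Between 43.4% and 46.7% of all probe sets lay above 7 in each array, and the log2 ratio of the 3′ to the 5′ control probe sets ranged between 0.45 and 1.11 for Actb and between -0.49 and -0.24 for Gapdh. The retina genes Rax, Six3, Six6, Pax6, Sox2 and Atoh7 were all kept, the lowest value being 10.60 for Rax in OC1-KO embryo 2. The 2 Onecut1 probe sets read 8.94, 7.51 and 9.30, and 9.02, 8.31 and 9.67, in OC1-KO embryos 1 to 3, against 8.51, 8.43 and 9.30, and 9.25, 8.76 and 9.00, in WT embryos 1 to 3. No source used here places these probes inside or outside the deletion, so their values, which overlap, do not test the genotype labels. A retina holds many cell types, and in such bulk samples fewer cells of a type and less RNA per cell cannot be told apart.

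**Figure D1:**
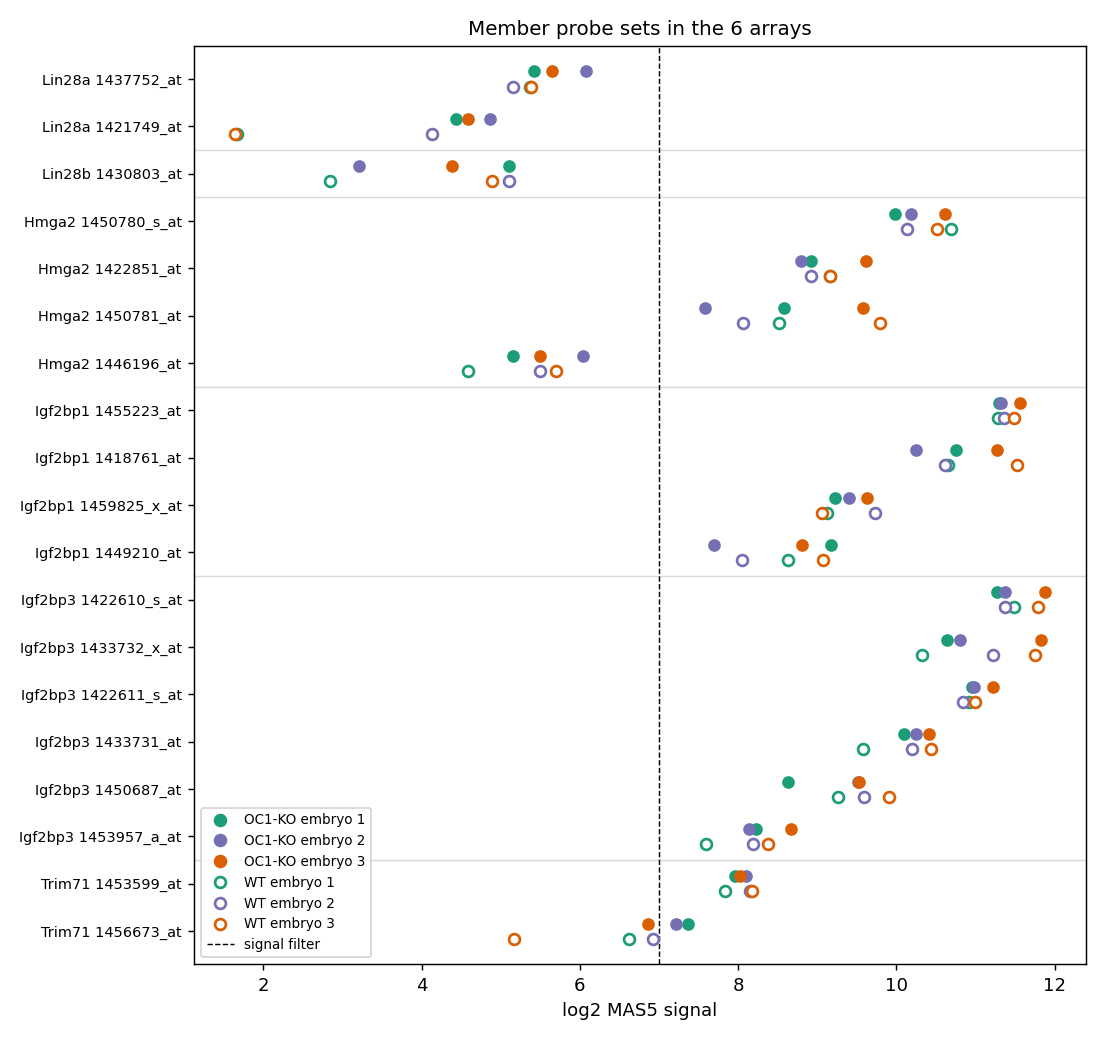
Log2 MAS5 signal (horizontal axis) of the 19 member probe sets in the 6 arrays, with OC1-KO embryos as filled points above and WT embryos as open points below in each line, coloured by embryo number; the dashed line marks the filter at 7. The Lin28a and Lin28b points all lie left of the filter, and both embryos numbered 3 lie right of the other 4 in 8 of the 15 probe sets kept.

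Lin28a and Lin28b, the proteins that block let-7, were at the low end of the array. The brighter Lin28a probe set, 1437752_at, read 5.42, 6.08 and 5.64 in OC1-KO embryos 1 to 3, against 5.37, 5.15 and 5.39 in WT embryos 1 to 3. The lowest OC1-KO array, at 5.42, stood just above the highest WT array, at 5.39. The means were 5.71 ± 0.33 in OC1-KO and 5.30 ± 0.13 in WT retinas (SD, n = 3 each), a log2 difference of 0.41 with a standard error of 0.24 (limma over all 45037 probe sets, adjusted p = 1.00). It was 0.23 without OC1-KO embryo 2 and 0.56 without OC1-KO embryo 1. The second Lin28a probe set, 1421749_at, read 4.43, 4.86 and 4.59 in OC1-KO embryos and 1.67, 4.13 and 1.64 in WT embryos. The groups again did not overlap, and the difference of 2.14 ± 0.72 (log2, SE) had an unadjusted limma p of 0.0265 and an adjusted p of 1.00. Embryos numbered 2 differed by 0.73 and those numbered 1 and 3 by 2.76 and 2.95, and with 1 array left out at a time the difference ran from 1.72 without WT embryo 3 to 2.97 without WT embryo 2. Both Lin28a probe sets were thus higher in 3 of 3 pairs of same-numbered embryos, at signals that do not reach the filter. Of the 24149 probe sets below the filter, 3.4% had OC1-KO above WT with no overlap and 3.76% OC1-KO below, and 2.43% were higher at an unadjusted p under 0.05. No value for Lin28a passed adjustment, and the exact permutation test of 3 against 3 arrays cannot go below p = 0.1, the value it gave for both.

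Lin28b showed no such order. Its probe set, 1430803_at, read 5.11, 3.20 and 4.39 in OC1-KO embryos, against 2.85, 5.10 and 4.89 in WT embryos, so that the highest and the lowest arrays of the gene came from both genotypes. The difference was -0.05 ± 0.78 (log2, SE, adjusted p = 1.00). Embryo 1 was higher in OC1-KO and embryos 2 and 3 were higher in WT. Leaving out 1 array at a time turned the sign of this difference, between -0.77 and 0.47. The 3 genes whose kept probe sets followed Lin28b most closely over the 6 arrays were Apex2 (Pearson r 0.98), Vrk2 (0.97) and Zdhhc5 (0.97), among 8525 candidates. With 6 arrays and that many candidates such values are a description only.

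Hmga2, the chromatin protein of fetal progenitors, did not separate by genotype on any of its 4 probe sets. The brightest, 1450780_s_at, read 9.99, 10.19 and 10.61 in OC1-KO embryos and 10.70, 10.13 and 10.51 in WT embryos. Its means were 10.26 ± 0.32 in OC1-KO and 10.44 ± 0.29 in WT retinas (SD, n = 3 each), a difference of -0.18 ± 0.23 (log2, SE, limma adjusted p = 1.00). With 1 array left out this ran from -0.36 without OC1-KO embryo 3 to -0.045 without OC1-KO embryo 1. On 1450781_at the values were 8.58, 7.58 and 9.57 in OC1-KO embryos, against 8.52, 8.06 and 9.79 in WT embryos. Here the genotypes overlapped and the embryo numbers did not: both embryos 3 were highest and both embryos 2 lowest. The other kept probe set, 1422851_at, read 8.92, 8.80 and 9.61 in OC1-KO embryos and 9.16, 8.92 and 9.16 in WT embryos, and the dim 1446196_at stayed between 4.58 and 6.04. The genes closest in pattern to the brightest probe set were Mri1 (Pearson r 0.99), Dyrk3 (0.98) and Pxmp2 (0.97) over the 6 arrays.

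Igf2bp1 and Igf2bp3, whose proteins bind and stabilise messages, also overlapped between genotypes. Igf2bp1 on its brightest probe set, 1455223_at, read 11.29, 11.32 and 11.56 in OC1-KO embryos, against 11.28, 11.36 and 11.49 in WT embryos. The difference of 0.02 ± 0.15 (log2, SE) lay within the spread of the embryos. Its other 3 probe sets differed by between -0.17 and 0.11. Igf2bp3 on 1422610_s_at read 11.28, 11.37 and 11.88 in OC1-KO embryos and 11.49, 11.37 and 11.79 in WT embryos, a difference of -0.04 ± 0.21 (log2, SE). Across its 6 probe sets the sign was split, 3 higher and 3 lower in OC1-KO, with differences between -0.36 for 1450687_at and 0.30 for 1453957_a_at. In each case the groups overlapped. By same-numbered pairs 1 to 3, 1450687_at was lower in OC1-KO each time (-0.62, -0.08 and -0.38). In limma with the embryo number as a block it had an unadjusted p of 0.0509 and an adjusted p of 0.999. The probe set 1422611_s_at was higher in OC1-KO in 3 of 3 pairs, by 0.03, 0.15 and 0.23. The suffixes _s_at and _x_at mark probe sets whose probes can also bind related messages, and the Igf2bp genes are alike in sequence, so values of 1422610_s_at, 1422611_s_at, 1433732_x_at and 1459825_x_at may mix signals of related genes. The brightest Hmga2 probe set, 1450780_s_at, carries the same suffix and the same limit.

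Trim71 was the member with the largest difference among the probe sets kept, on only 1 of its 2. The brighter probe set, 1453599_at, read 7.97, 8.10 and 8.02 in OC1-KO embryos, against 7.84, 8.14 and 8.17 in WT embryos, a difference of -0.02 ± 0.16 (log2, SE). The dimmer 1456673_at read 7.37, 7.21 and 6.85 in OC1-KO embryos and 6.62, 6.93 and 5.17 in WT embryos. Its groups overlapped only in that OC1-KO embryo 3, at 6.85, lay below WT embryo 2, at 6.93. The means were 7.15 ± 0.26 in OC1-KO and 6.24 ± 0.94 in WT retinas (SD, n = 3 each), a difference of 0.91 ± 0.45 (log2, SE), with an unadjusted limma p of 0.0814 and an adjusted p of 1.00. The OC1-KO embryo was higher in 3 of 3 same-numbered pairs, by 0.76, 0.28 and 1.68. In limma with the embryo number as a block it had an unadjusted p of 0.0198, and 0.999 once adjusted. This probe set passed the filter through its OC1-KO mean alone. WT embryo 3, at 5.17, was the lowest of the 6, and without that array the difference was 0.37 ± 0.23 (log2, SE), against 1.25 ± 0.44 without WT embryo 2. Trim71 lies on chromosome 9, as Onecut1 does.

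**Figure D2:**
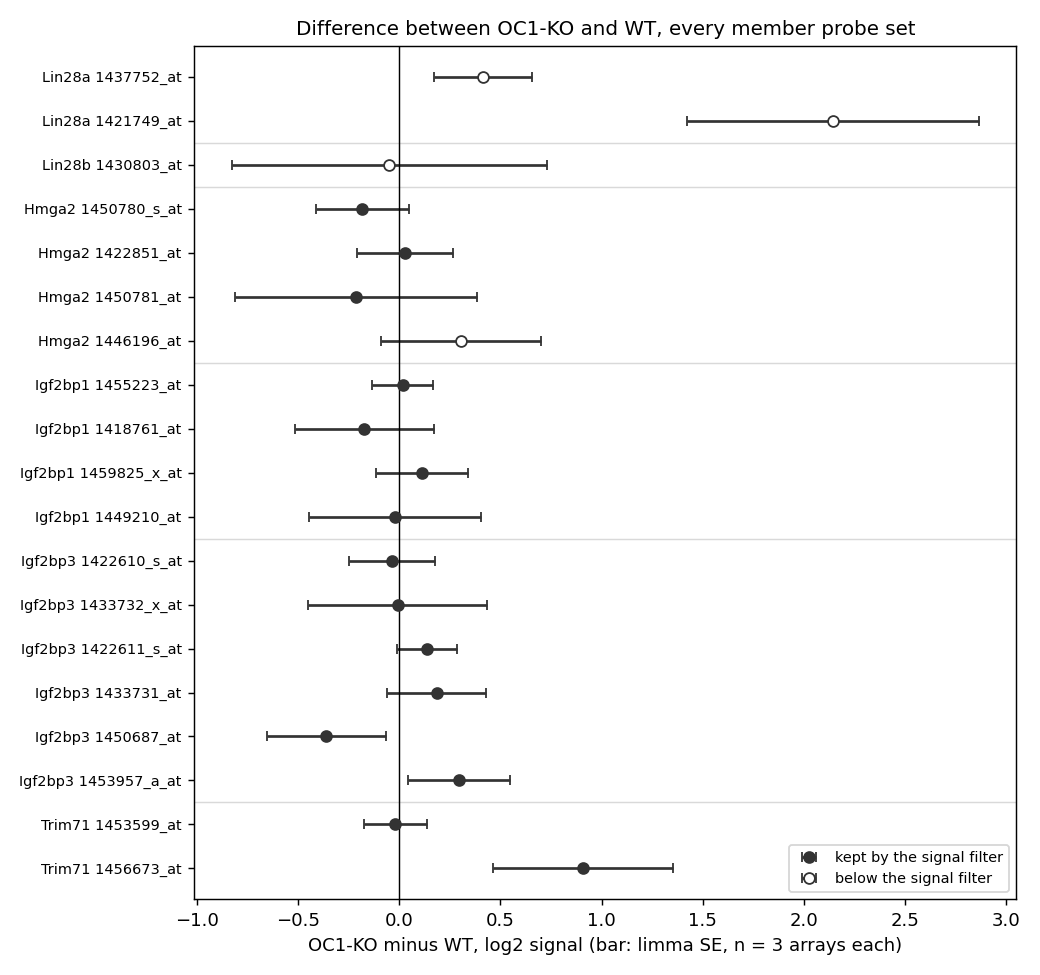
OC1-KO minus WT difference in log2 signal for each of the 19 member probe sets (points) with its limma standard error (bars, n = 3 arrays per genotype); open points are below the filter. The kept points lie between -0.36 and 0.91, 7 right and 8 left of 0, and the 1 point beyond 1 is the dim Lin28a probe set at 2.14.

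Over the whole set, the genotype comparison made no call. None (0) of the 15 kept probe sets had OC1-KO and WT values without overlap, against 1.7% of all kept probe sets with OC1-KO above and 1.86% with OC1-KO below. None (0) reached an unadjusted limma p under 0.05, against 1.01% of all kept probe sets (77 or 0.369% higher and 133 or 0.637% lower), and by the unadjusted test of the study's methods the member count was also 0, against 1.51%. With the embryo number as a block it was 1 of 15, the Trim71 probe set, against 4.37% of all kept probe sets (1.57% higher and 2.81% lower). That probe set was kept only through the genotype in which it is higher, so this count is no support for a difference. No probe set of any gene passed an adjusted p under 0.05 in limma with or without the block or by the methods' test. Of the member differences 7 were above 0, against 47.7% of all kept probe sets, and 8 below, with a median of -0.01, against -0.01 over all kept probe sets. A p that misses the threshold with 3 arrays per group does not show that the genotypes were alike. The standard errors on the kept member probe sets set what each fit could see. They were 0.15 to 0.60 without the block and 0.11 to 0.27 with it.

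In the gene lists around the members no gene passed adjustment. Among genes of let-7 biogenesis and turnover, which include the nuclease Drosha that cuts the primary transcript and the exonuclease Dis3l2 that degrades let-7 precursors, 8 of the 15 kept were higher and 7 lower in OC1-KO, with a median of 0.07. Of 22 kept let-7 targets other than the members, such as the cell cycle genes Ccnd2 and Cdc25a, 12 were higher and 10 lower (median 0.05). The IGF axis, which includes Igf2, whose message IGF2BP proteins bind, had 9 of 12 higher and 3 lower (median 0.05). In none of these lists, nor in 12 other chromatin and RNA-binding genes of early progenitors, did a gene reach an unadjusted limma p under 0.05 (0 in each). With the embryo number as a block 2 let-7 targets did, and none (0) in the other 3 lists, against 325 of all 10529 genes. These were Ccnd2, higher in OC1-KO by 0.36, 0.26 and 0.60 in pairs 1 to 3, and Prtg, lower by a mean log2 difference of -0.34, each with a limma adjusted p of 0.999. Without the block, 29 of all 10529 genes, each by its brightest probe set, were higher and 57 lower at an unadjusted limma p under 0.05. The median over all genes was -0.00. Irs1, an adaptor of the insulin and IGF receptors, was chosen after its values were seen as the 1 gene of the IGF axis without overlap, at 12.15, 12.12 and 12.22 in OC1-KO embryos and 12.05, 11.89 and 11.72 in WT embryos. Over all genes 395 of 10529 were without overlap.

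The members were then set out by embryo number, with genotype in the fit, to see whether same-numbered embryos were alike. Both embryos 3 often stood above the rest. Of the 15 kept probe sets, 8 had both embryos 3 above the other 4 embryos, against 14.9% of all kept probe sets, and 0 had both below, against 23.5%. Those 8 comprised 5 of the 6 Igf2bp3 probe sets, 2 of the 4 for Igf2bp1 and 1 of the 3 for Hmga2. Embryos 3 exceeded embryos 1 in 14 of 15 member probe sets (45.7% of all) and embryos 2 in 12 of 15 (44.1% of all), whereas embryos 2 exceeded embryos 1 in 8 of 15 (50% of all). The member medians were 0.34 for 3 minus 1, 0.36 for 3 minus 2 and 0.05 for 2 minus 1, against -0.04, -0.05 and -0.00 over all kept probe sets. Probe sets of 1 gene are not independent of each other.

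Member probe sets of 3 genes, 1 of each, passed adjustment in a contrast with embryos 3. Hmga2 on 1450781_at averaged 9.68 in embryos 3, against 8.55 in embryos 1 and 7.82 in embryos 2 (n = 2 each). It was higher in embryos 3 by 1.13 ± 0.17 over embryos 1 (log2, SE, limma adjusted p = 0.0307) and by 1.86 ± 0.17 over embryos 2 (adjusted p = 0.0347), in both genotypes each time. Igf2bp3 on 1433732_x_at read 11.83 and 11.75 in embryos 3 (OC1-KO and WT), against 10.64 and 10.32 in embryos 1, a difference of 1.31 ± 0.21 (limma adjusted p = 0.0322). Igf2bp1 on 1418761_at read 11.27 and 11.52 in embryos 3, against 10.24 and 10.61 in embryos 2, a difference of 0.97 ± 0.17 (limma adjusted p = 0.0462). Thus 2 of 15 were higher in 3 minus 1, against 3.13% of all kept probe sets, and 2 of 15 in 3 minus 2, against 1.44%. No member was lower in either contrast (0 of 15), against 5.19% and 3.18% of all, and 2 minus 1 called 0 probe sets of any gene. By the F test over the 3 numbers 1 of 15 passed adjustment, Hmga2 1450781_at (adjusted p = 0.0399), against 5.32% of all kept probe sets, and 7 of 15 had an unadjusted p under 0.05, against 31.9%.

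No other probe set of these genes passed adjustment. Igf2bp3 on its brightest probe set was higher in embryos 3 by 0.45 and 0.46 over embryos 1 and 2 (limma adjusted p = 0.117 and 0.127). On 1433731_at, which differed by 0.18 between genotypes, Igf2bp3 was higher in embryos 3 by 0.59 and 0.20 (limma adjusted p = 0.109 and 0.521). The brightest Igf2bp1 probe set differed by 0.23 and 0.18, and the brightest for Hmga2 by 0.22 and 0.40, none of which passed. Igf2bp1 on 1449210_at gave a different order and a larger 3 minus 2 difference, 1.07 ± 0.25 (log2, SE, limma adjusted p = 0.0768), with 7.69 and 8.05 in embryos 2 (OC1-KO and WT) below the 8.63 to 9.17 of the others. Trim71 went the other way on 1456673_at, at 6.85 and 5.17 in embryos 3 and 7.37 and 6.62 in embryos 1, a difference of -0.98 (limma adjusted p = 0.129). Lin28a did not follow the number, with 3 minus 1 differences of 0.12 and 0.06 and 3 minus 2 differences of -0.10 and -1.38. The calls against embryos 1, on Hmga2 1450781_at and Igf2bp3 1433732_x_at, were lost in all 6 fits that left out 1 array, and those against embryos 2, on Hmga2 1450781_at and Igf2bp1 1418761_at, in 4 of 6, holding without either embryo 1. Testing all probe sets without the filter ended each of these calls, at adjusted p between 0.262 and 0.342, and the other 6 alternatives kept them. The F test called 0 member probe sets in 5 of the 6 fits with 1 array left out and 3 without WT embryo 1.

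**Figure D3:**
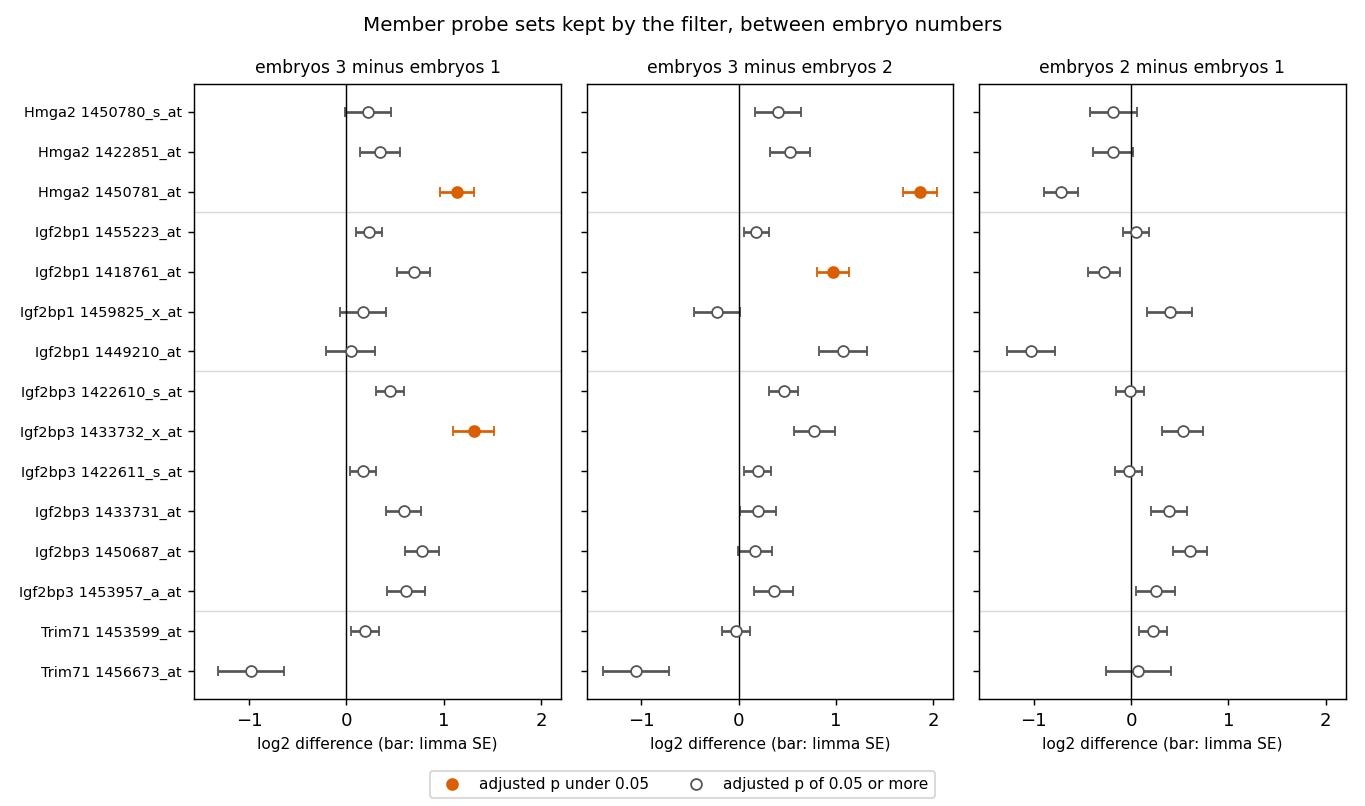
Differences in log2 signal between embryo numbers for the 15 member probe sets kept, as 3 panels (3 minus 1, 3 minus 2, 2 minus 1); bars are limma standard errors with 2 arrays per number, and filled points passed an adjusted p under 0.05. Most points of the panels with embryos 3 lie right of 0, with 2 filled in each, and those of 2 minus 1 lie on both sides with none filled.

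Embryos 3 also carried far more signal from tissues next to the retina. Lens markers (13 genes measured, 5 of them under 7 in every array) summed to a linear MAS5 signal of 12816 in OC1-KO embryo 3 and 26751 in WT embryo 3, against 305 to 504 in the other 4 embryos. Red blood cell markers (7 genes, 2 under 7 throughout) summed to 24044 and 16662 in OC1-KO and WT embryo 3, against 148 to 821. Periocular mesenchyme markers (11 genes, 5 under 7 throughout) summed to between 2840 and 3299, against 635 to 802, and pigment epithelium markers (10 genes, 4 under 7 throughout) to between 1109 and 2497, against 423 to 889. Endothelium markers (8 genes, 6 under 7 throughout) summed lower in embryos 3, at 1546 to 1636 against 1646 to 2483. The 2 of them kept went opposite ways. Kdr read 10.24 and 10.13 in OC1-KO and WT embryo 3, against 10.33 to 11.10 in the others. Cldn5 read 8.13 and 8.22 there, against 7.40 to 7.89. Macrophage markers (8 genes, 3 under 7 throughout) were at 1221 to 1420 in embryos 3, against 1026 to 1201. Retina markers summed to 61798 to 71002 in embryos 3 and 51627 to 64379 in the others. The lens crystallin Crybb1, for example, read 11.36 and 12.36 in embryos 3 of OC1-KO and WT, and between 3.28 and 5.43 elsewhere. The RNA control ratios also set embryos 3 apart: the log2 3′ to 5′ ratio was 0.45 and 0.66 for Actb in OC1-KO and WT embryo 3, against 0.76 to 1.11 in the others, and -0.49 and -0.42 for Gapdh, against -0.27 to -0.24. The part of these tissues and ratios in the Hmga2 and Igf2bp values was not tested, and with 2 arrays per number they cannot be told apart from any other property that embryos 3 share.

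Between genotypes the same sums overlapped. Within each number, pigment epithelium markers were higher in OC1-KO. They summed to 778, 889 and 2497 in OC1-KO embryos 1 to 3, against 524, 423 and 1109 in WT embryos. Of the 4 genes kept, 0 had an unadjusted p under 0.05 by limma. With the number as a block 2 did, against 325 of all 10529 genes. These 2, Pmel and Mitf, passed the filter through their OC1-KO means alone, 8.36 and 7.59, against 6.97 and 6.88 in WT retinas. This count is thus no support for a difference. The Trim71 probe set 1456673_at, both Lin28a probe sets and Igf2bp3 1422611_s_at were also higher in OC1-KO within each number. The part of the pigment epithelium markers in them was not tested.

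**Figure D4:**
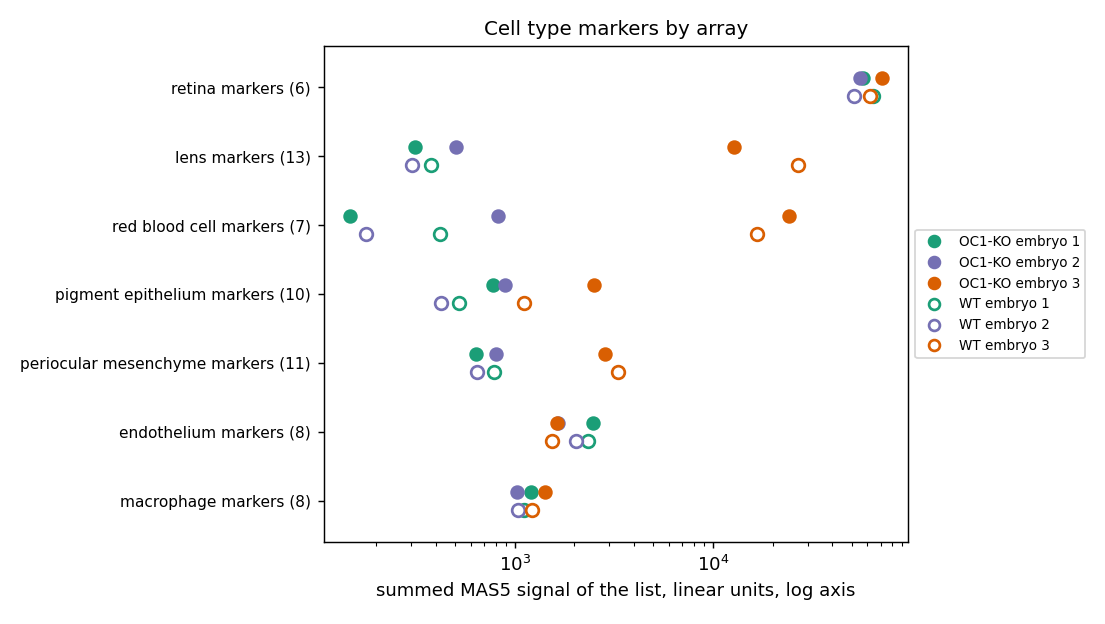
Summed linear MAS5 signal of each marker list (log axis; the number of genes measured is in parentheses) in the 6 arrays, OC1-KO filled and above, WT open and below, coloured by embryo number. Both embryos numbered 3 lie more than an order of magnitude right of the other 4 for lens and red blood cell markers and near or among them for retina, endothelium and macrophage markers.

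Genes of the same axis and of retinal stage were read beside the members, since a difference in stage would also go with embryo number. The part of the tissues next to the retina and of the RNA control ratios in their values, such as those of Igf2, Ccnd2, Gja1 and Nefm, was not tested either. In the IGF axis, Igf2, the growth factor whose message the IGF2BP proteins bind, read 12.31 and 11.67 in embryos 3 of OC1-KO and WT, against 9.55 to 10.01 in the other 4. It was higher in embryos 3 by 1.99 ± 0.19 over embryos 1 (log2, SE, limma adjusted p = 0.0238) and by 2.24 ± 0.19 over embryos 2 (adjusted p = 0.0347). Igf2r, the receptor that clears IGF2, was higher in embryos 3 than in embryos 2 by 1.31 (adjusted p = 0.0347) and differed by 0.44 from embryos 1 (adjusted p = 0.106). Igfbp2, which binds IGFs outside the cell, differed by 0.76 and 0.58 and did not pass. Of the 12 genes of that axis kept, 7 lay higher and 5 lower in 3 minus 1 (median 0.14). In 3 minus 2, 10 lay higher and 2 lower (median 0.17). At a limma adjusted p under 0.05, 1 was higher in 3 minus 1 and 2 in 3 minus 2, none lower. Over all 10529 genes, 277 were called higher and 207 lower in 3 minus 1, and 99 and 99 in 3 minus 2.

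Other let-7 targets were mixed. Ccnd2, a D-type cyclin, read 11.61 and 11.01 in embryos 3, against 9.48 to 9.85 in the other 4, higher by 1.65 ± 0.15 and 1.59 ± 0.15 over embryos 1 and 2 (log2, SE, limma adjusted p = 0.0238 and 0.0347). Cdc25a, a phosphatase that drives entry into S phase, was higher in embryos 3 than in embryos 2 by 0.82 (adjusted p = 0.047) and not called against embryos 1. Of the 22 targets kept, 13 lay higher and 9 lower in 3 minus 1 (median 0.12), and 14 higher and 8 lower in 3 minus 2 (median 0.07). Among the 15 genes of let-7 biogenesis and turnover, Drosha alone was called in 3 minus 1, higher by 0.82 (limma adjusted p = 0.0386), and the medians were -0.02 and 0.02. Ybx3, Pum2 and Msi2, RNA-binding proteins of the remaining list, were called in no contrast (0).

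The stage lists were mixed. Of 10 kept genes of early retinal progenitors, 8 lay higher and 2 lower in embryos 3 than in embryos 1 (median 0.29) and likewise against embryos 2 (median 0.26). Of 15 kept genes of late progenitors and glia, 11 lay higher and 4 lower in each contrast (medians 0.10 and 0.24). Of 17 kept genes of differentiating neurons, 7 lay higher and 10 lower in 3 minus 1 (median -0.05), and 9 higher and 8 lower in 3 minus 2 (median 0.06). Over all 10529 genes the medians were -0.03 and -0.03. At a limma adjusted p under 0.05, 2 of 10, 1 of 15 and 2 of 17 genes of these lists were called in 3 minus 1, all higher. Over all 10529 genes 277 were higher and 207 lower. In 3 minus 2 the calls were 0 of 10, 0 of 15 and 1 of 17, also higher, against 99 higher and 99 lower over all genes.

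By name, the early progenitor gene Hes5, a Notch target, read 10.41 and 10.45 in embryos 3 and 9.01 and 8.64 in embryos 1 (OC1-KO and WT), a difference of 1.60 ± 0.21 (log2, SE, limma adjusted p = 0.0278), but 10.45 and 10.85 in embryos 2. Slc1a3, the glutamate transporter of glia and late progenitors, was likewise lowest in embryos 1. It was higher in embryos 3 by 1.36 over embryos 1 (limma adjusted p = 0.0313) and by 0.24 over embryos 2 (limma adjusted p = 0.511). Its mean was thus highest in embryos 3, and that of Hes5 in embryos 2. The neurofilament gene Nefm, of ganglion cell axons, read 13.51 and 13.31 in embryos 3 and 12.52 to 12.62 in the others, higher by 0.80 and 0.85 (adjusted p = 0.036 and 0.0421). The gap junction gene Gja1 read 12.14 and 10.59 in embryos 3, against 9.17 to 9.73, higher by 1.98 over embryos 1 (adjusted p = 0.0406). Genes of early progenitors, of glia and of neurons were thus each among those higher in embryos 3 than in embryos 1. Whether embryos of different numbers differed in stage was not tested beyond these counts, since the labels give every embryo the same day.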

How the data were processed

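Total RNA of retinas from 3 OC1-KO and 3 WT embryos was amplified, labelled with biotin and hybridised to Affymetrix mouse genome arrays. The deposited values are linear intensity values that the authors made with MAS5 (version not given in the sources used here), scaled to a trimmed mean of 500 per array over 45101 probe sets; scaling every array to 1 mean can shift all values of an array when a few bright genes change. MAS5 subtracts mismatch probes, which leaves dim signals noisy. Log2 was taken with no pseudocount, and 20888 probe sets with a mean above 7 in either genotype were tested with limma 3.58.1 (R 4.3.3) and Benjamini-Hochberg adjustment, without pairs as in the methods, whose unadjusted t-test is an alternative. Among kept probe sets 18250 carry 1 symbol, 505 more than 1 and 2133 no symbol. Probe sets below the filter take values from the same fit over all 45037. The fit by embryo number used number and genotype and has 2 residual degrees of freedom. P-values of the genotype fit without the number rest on the spread between these embryos within a genotype. In the fits with the number they rest only on the spread left after number and genotype.

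Same-numbered arrays deviated together from their group means (correlations 0.51 to 0.67), so the numbers were taken to pair the embryos. The pairing comes from the values, not from the labels. Correlations for different numbers ran from -0.44 to -0.04. Deviations from a group mean cancel out within the group, so positive correlations for same numbers by themselves push the others to negative values. All probe sets of a member are named, the brightest first. From each gene list up to 3 genes with the smallest p by the embryo number F test were eligible for naming, since no list gene had an unadjusted p under 0.05 between genotypes in limma without the block. The members and lists were chosen with earlier results of these data known. Alternatives were other scalings, filters, a pseudocount, moderation with a trend, each array left out, the block and embryos 1 and 2 alone. The fits were tested on simulated data first. There the noise was independent between arrays and only some probe sets carried an embryo number effect. That test therefore does not show how the genotype fit without the block behaves in these data.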

Additional observations from a re-analysis of the deposited data

How the results depend on the processing

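Between genotypes, 0 probe sets passed adjustment in any of 16 alternatives. At an unadjusted p under 0.05, probe sets higher in OC1-KO numbered 611 without a filter, 48 with a filter of 8, 51 with trend and robust moderation, 160 by the methods' t-test, 252 in embryos 1 and 2 alone, and 61 to 222 with 1 array left out, against 77. Those lower numbered 694, 69 and 68 in the first 3 of these, 79 with array medians aligned and 85 to 254 with 1 array left out, against 133. With the replicate block, which pairs embryos by number, they were 327 and 586. Member probe sets at that p were 1 with the block, 1 in embryos 1 and 2 alone and 0 to 1 with 1 array left out (1 without WT embryo 2), and those without overlap 1 after quantile normalization and 3 in embryos 1 and 2 alone, against 0. The block changed no call after adjustment.

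The size or sign of small differences changed: Trim71 was 0.0076 with medians aligned, and Lin28b, Igf2bp1 and Trim71 were 0.18, -0.011 and 0.043 in embryos 1 and 2 alone. With 1 array left out the differences ran from 0.23 to 0.56 for Lin28a, -0.36 to -0.045 for Hmga2, -0.77 to 0.47 for Lin28b, -0.067 to 0.072 for Igf2bp1, -0.22 to 0.082 for Igf2bp3 and -0.13 to 0.039 for Trim71, and Hmga2 in 3 minus 1 from -0.18 to 0.61. Other probe sets gave the opposite sign at 0.027 and 0.30 (Hmga2), -0.17 and -0.024 (Igf2bp1), 0.14, 0.18 and 0.30 (Igf2bp3) and 0.91 (Trim71), and Igf2bp1 in 3 minus 2 at -0.22. The cause was not tested.

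Embryo number calls by the F test depended on settings: 3856 probe sets with medians aligned, 0 without a filter, 2308 with a filter of 8, 1905 with log2(signal + 32), 4214 with trend and robust moderation, 2369 without the genotype term and 0 to 1481 with 1 array left out (at most 6 unless that was WT embryo 1), against 1111. For members these were 5, 0, 5, 3, 6, 4 and 0 to 3, against 1. A fit with 1 array left out assumes that the lone array of a number varies like the others. Aligning medians moved the median of all genes to 0.09 in 3 minus 1. The members above 0 there stayed at 14 of 15 under all 3 scalings, and those with both embryos 3 on top were 8, 9 and 10.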
